A study of Mus musculus with 48 samples.

Results

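The deposited table compares segments of mouse brain between genotypes, which the design text of the series calls microglial. The comparison described here sets the 5 columns headed 5xFAD-LynKO against the 6 headed WT, 11 of the table's 16 columns. The members were taken by the column headings. The series used GeoMx digital spatial profiling, in which probe tags are released by light from chosen regions of a tissue section and counted by sequencing. The WT columns are wild-type mice. The 5xFAD-LynKO columns are mice that carry the 5xFAD transgenes, which are driven by a neuronal promoter and give amyloid deposits, and that also lack the Src-family kinase gene Lyn. The 5 columns headed 5xFAD, the same transgenes with Lyn intact, share the fit and are given beside some results. The contrast with WT therefore joins 2 changes, the transgenes and the loss of Lyn, which cannot be told apart within it. The sources used here give no age, sex, strain background or number of animals. No marker stands in the headings, and the design text of the series is the reason for taking them as TMEM119-positive segments. Several regions were taken from each brain slice, so 2 columns with 1 heading can come from the same animal, in which case the p-values given here are too small.

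Microglia are the resident macrophages of the brain. In mice with amyloid deposits, microglia around plaques are known to pass, through the receptor TREM2 and its adaptor TYROBP, into a disease-associated state with more Apoe, Spp1, Cst7 and lysosomal cathepsin RNA and less RNA of homeostatic genes such as Cx3cr1 and Tmem119. Microglia also make the 3 chains of C1q, which starts the classical complement cascade. LYN phosphorylates activating and inhibitory receptors in myeloid cells.

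Levels are given as multiples of the negative control row of the same column, the signal of control without a mouse target, so that 1 is background. That row is called the negative probe here, though it may summarize several probes. Differences are in log2 after each column was divided by its median over all targets, 5xFAD-LynKO minus WT. A target is called at an adjusted p under 0.05, by limma with Benjamini-Hochberg adjustment over 19960 targets, and counts as above background at 1.5 times the negative probe or more, taken over both genotypes. By that measure 2649 tested targets were above background. Since the background was not subtracted, a log2 difference understates the change of targets near it.

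The implied probe counts of a column lay between 1194248 and 2548601 under WT and between 3207094 and 5793533 under 5xFAD-LynKO, with no overlap (exact two-sided permutation p = 0.00433, the smallest that 6 against 5 columns can give). The negative probe stood at 0.894 ± 0.019 of the column median under WT (SD, n = 6) and at 0.941 ± 0.027 under 5xFAD-LynKO (SD, n = 5; exact permutation p = 0.013). Targets over 1.5 times the negative probe numbered 3514 ± 752 under WT and 2262 ± 1114 under 5xFAD-LynKO (exact permutation p = 0.0563), where column 1 had 894. Over 7 such measures, the Benjamini-Hochberg adjusted p-values of these tests were 0.0152, 0.0303 and 0.097. The part of these column differences in the results below was not tested. As deposited, the column medians were 86.7 under WT and 196 under 5xFAD-LynKO, a shift of 1.18 log2 that division by the column median removes. Of the called falls, 1, that of Ctsd, was larger than this shift.

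Neither Lyn nor Tmem119 checks the headings. Lyn stood at 1.09 to 1.51 times the negative probe in the WT columns, with a median of 1.32, and at 1.13, 1.32, 1.09, 1.28 and 1.21 in 5xFAD-LynKO columns 1 to 5. The groups overlapped, and the log2 difference was -0.04 with a 95% interval of -0.21 to 0.14 (limma adjusted p = 0.91), a sign that turned positive with the upper quartile as scale. Both groups lay under the limit taken as background, and it is not known here which stretch of Lyn was deleted or probed. Tmem119, the gene of the protein used to choose the segments, stood at 0.847 to 1.09 under WT and at 0.729 to 0.819 under 5xFAD-LynKO, at or near the negative probe throughout. The groups did not overlap, and its log2 difference was -0.22, with an adjusted p of 0.508. Tlr4, the lipopolysaccharide receptor gene, ran from 1.18 to 1.60 under WT and from 1.05 to 1.41 under 5xFAD-LynKO, with a log2 difference of -0.13 (interval -0.34 to 0.08).

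In all, 12 targets were called, 11 lower (0.0551% of 19960) and 1 higher (0.00501%) under 5xFAD-LynKO. The lower genes were 3 of lysosomal proteolysis (Ctsd, Ctss, Cst7), 3 of complement (C1qa, C1qc, C4b), the receptor and adaptor pair Trem2 and Tyrobp, the secreted phosphoprotein gene Spp1, the metallothionein gene Mt1 and the predicted gene Gm21783. Dzip1l was higher. Of the 12, 6 were above background (Ctsd, Ctss, C1qa, C1qc, C4b and Mt1), and 4 of these (Ctss, C1qa, C1qc and C4b) passed that limit through WT, being under 1.5 times the negative probe in the mean of the 5xFAD-LynKO columns. In each of the 12 the columns of both genotypes did not overlap. Counts of genes without overlap are taken on multiples of the column median throughout. At an unadjusted p under 0.05 there were 782 lower targets (3.92%) and 1027 higher ones (5.15%), and the columns did not overlap for 60 lower (0.301%) and 69 higher (0.346%) targets.

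**Figure D1:**
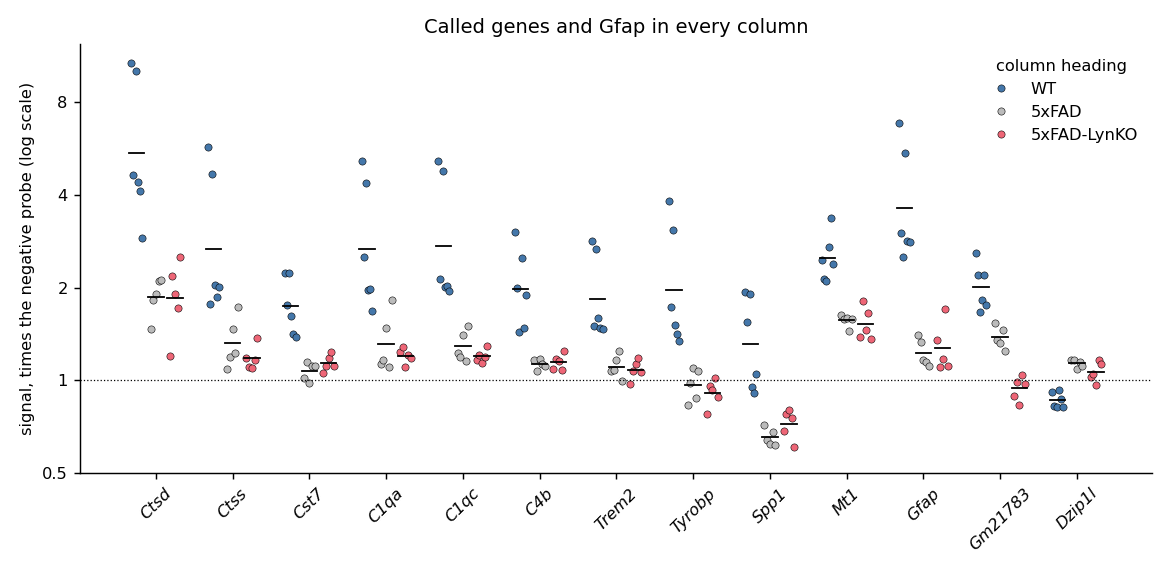
Signal of the 12 called genes and Gfap in each of the 16 columns, as a multiple of the negative probe on a log axis. Points are columns, bars are geometric means and the dotted line marks the negative probe. WT columns lie above all 5xFAD-LynKO columns for every gene shown but Dzip1l, and 2 WT columns stand highest in Ctsd, Ctss, C1qa and C1qc.

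Cathepsin D, an aspartic protease of the lysosome encoded by Ctsd, had the largest called fall. Ctsd stood at 2.90 to 10.7 times the negative probe in the WT columns, with a median of 4.54. In 5xFAD-LynKO columns 1 to 5 it stood at 1.20, 2.19, 1.91, 1.72 and 2.51. Every WT column was above every 5xFAD-LynKO column, with WT columns 1 and 3 at 10.7 and 10.1 and the other WT columns at 4.64 or less. The log2 difference was -1.49, with a 95% interval of -1.99 to -0.99 (2.81-fold lower, limma adjusted p = 0.0129). Without WT columns 1 and 3 it was -1.02, and the call stood (adjusted p = 0.0147).

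Ctss, the cysteine protease cathepsin S of myeloid cells, ran from 1.77 to 5.75 under WT with a median of 2.03. Under 5xFAD-LynKO it stood at 1.18, 1.11, 1.10, 1.17 and 1.38, near the negative probe in each column. Its log2 difference was -1.11 (interval -1.55 to -0.66, adjusted p = 0.0389). Cst7, which encodes the cathepsin inhibitor cystatin F, ran from 1.38 to 2.23 under WT and from 1.05 to 1.24 under 5xFAD-LynKO, a log2 difference of -0.54 (interval -0.76 to -0.32, adjusted p = 0.0389). WT columns 1 and 3 were again the highest for both genes. Without these 2 columns Ctss stayed called at -0.63, whereas Cst7 did not, at -0.36 (adjusted p = 0.356).

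Of 16 genes of lysosomal proteases and cystatins, 3 fell and 0 rose, and the columns did not overlap for 5, all lower. Over all targets, 0.0551% were called lower, and 0.301% were lower without overlap. The median log2 difference of the 16 was -0.29, beside 0.00 over all targets and -0.10 over those above background. Cst3, the extracellular inhibitor cystatin C, had the highest level of the list, from 6.99 to 17.7 under WT and from 3.52 to 5.95 under 5xFAD-LynKO. Its groups did not overlap, but the log2 difference of -1.06 had an interval of -1.76 to -0.35 and an adjusted p of 0.471. Legumain (Lgmn, -0.54) and cathepsin L (Ctsl, -0.31), both lysosomal cysteine proteases, had adjusted p of 0.402 and 0.485. Of 25 genes of the lysosomal membrane, its hydrolases and its proton pump, 0 were called, and the median was -0.13. Psap, the precursor of the saposins, was high in both groups, with WT at 6.36 to 10.3 and 5xFAD-LynKO at 3.51 to 9.03, which overlap.

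The promoter of Ctsd is shown for its paired E-boxes, the core CACGTG that factors of the TFEB family can bind, here in capitals. The 250 bases before the annotated start are from RefSeq on GRCm38.p6, chr7:142387828-142388077, minus strand, written 5′ to 3′.
Ctsd: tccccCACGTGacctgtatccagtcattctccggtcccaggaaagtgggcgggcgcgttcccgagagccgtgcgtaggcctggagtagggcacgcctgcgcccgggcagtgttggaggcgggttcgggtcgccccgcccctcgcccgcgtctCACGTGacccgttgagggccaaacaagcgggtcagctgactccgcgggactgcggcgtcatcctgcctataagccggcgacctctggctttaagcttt
CACGTG, searched on both strands, was found in 6.02% of 32851 such promoter windows and more than once, as here, in 0.429%. Of the 8 called genes with a promoter in the table, 1 held it.

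C1q is assembled from 3 chains, whose genes C1qb, C1qc and C1qa lie next to each other in the RefSeq order. C1qc ran from 1.95 to 5.15 times the negative probe under WT, with a median of 2.08, and stood at 1.17, 1.21, 1.14, 1.20 and 1.29 in 5xFAD-LynKO columns 1 to 5. C1qa ran from 1.68 to 5.18 under WT, with a median of 2.25, and stood at 1.24, 1.29, 1.11, 1.21 and 1.18 under 5xFAD-LynKO. For both genes all WT columns were above all 5xFAD-LynKO columns, and WT columns 1 and 3 were more than 4 times the negative probe. The log2 difference was -1.12 for C1qc (interval -1.51 to -0.73, adjusted p = 0.0174) and -1.08 for C1qa (interval -1.50 to -0.67, adjusted p = 0.025).

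C1qb, the third chain, was not called. It ran from 1.54 to 6.05 under WT and from 1.29 to 1.44 under 5xFAD-LynKO, apart as multiples of the negative probe but overlapping as multiples of the column median. Its log2 difference was -0.91 (interval -1.37 to -0.45, adjusted p = 0.275). Without WT columns 1 and 3, C1qc stayed called at -0.68 (adjusted p = 9.45e-04), and C1qa did not, at -0.67 (adjusted p = 0.0566). The genes on either side of the C1q cluster, Ephb2 and Epha8, differed by 0.15 and 0.06 log2, with adjusted p of 0.598 and 0.857.

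C4b, the complement protein that C1s cleaves after C1q binds, stood at 1.44 to 3.04 under WT with a median of 1.95. In 5xFAD-LynKO columns 1 to 5 it stood at 1.09, 1.17, 1.16, 1.08 and 1.25, below every WT column. This is a log2 difference of -0.72 (interval -0.98 to -0.45, adjusted p = 0.0193), and -0.68 without WT columns 1 and 3 (adjusted p = 0.00632). C4b was highest in WT columns 1 and 4, not in columns 1 and 3. In diseased mouse brain C4b is known to be made by astrocytes and oligodendrocytes too. Of 15 complement genes, 3 fell and 0 rose, beside 0.0551% of all targets called lower. The median over the 15 was -0.01.

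The 250 bases before the annotated start are shown for C1qc, Ctss and Trem2, which fell together, with the core GAGGAA in capitals on either strand. This is the ETS core bound by PU.1, the factor that myeloid cells depend on. The sequences are from RefSeq on GRCm38.p6, 5′ to 3′, and lie at chr4:136892915-136893164 (minus strand), chr3:95526536-95526785 (plus strand) and chr17:48346151-48346400 (plus strand).
C1qc: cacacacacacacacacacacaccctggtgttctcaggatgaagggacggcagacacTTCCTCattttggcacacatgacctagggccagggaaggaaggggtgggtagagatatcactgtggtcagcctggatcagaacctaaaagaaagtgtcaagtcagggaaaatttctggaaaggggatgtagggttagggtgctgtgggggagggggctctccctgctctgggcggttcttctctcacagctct
Ctss: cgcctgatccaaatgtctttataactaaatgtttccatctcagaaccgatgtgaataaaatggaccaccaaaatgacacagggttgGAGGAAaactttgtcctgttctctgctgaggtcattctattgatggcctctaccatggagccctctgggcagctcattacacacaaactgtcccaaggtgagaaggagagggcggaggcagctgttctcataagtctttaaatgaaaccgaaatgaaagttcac
Trem2: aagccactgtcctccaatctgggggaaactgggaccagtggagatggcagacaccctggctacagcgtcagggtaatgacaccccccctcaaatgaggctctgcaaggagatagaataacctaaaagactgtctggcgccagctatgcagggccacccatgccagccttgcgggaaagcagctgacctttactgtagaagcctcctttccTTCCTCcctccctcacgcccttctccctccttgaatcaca
Of the 12 called genes 8 had a promoter in the table, and 4 of these held GAGGAA, the fourth being Spp1 at 1 of its 2 annotated starts. The core was in 23.3% of all 32851 windows, so a match is a description and not a binding site.

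Trem2 and Tyrobp encode the lipid-sensing receptor of microglia and the adaptor that signals for it through the kinase SYK. Tyrobp stood at 1.35 to 3.84 times the negative probe under WT, with a median of 1.62. In 5xFAD-LynKO columns 1 to 5 it was at 0.781, 0.963, 0.929, 1.02 and 0.887, which is the level of the negative probe. Tyrobp thus differed by -1.04 log2 (interval -1.42 to -0.67, adjusted p = 0.0193). Trem2 ran from 1.47 to 2.83 under WT and stood at 0.973, 1.07, 1.13, 1.18 and 1.07 under 5xFAD-LynKO, at -0.69 log2 (interval -0.98 to -0.41, adjusted p = 0.0444). For both genes WT columns 1 and 3 were the highest and no 5xFAD-LynKO column reached the lowest WT column. Without these 2 columns Tyrobp stayed called at -0.64 (adjusted p = 0.00632) and Trem2 did not, at -0.40 (adjusted p = 0.131). Of 12 genes of the Trem2, Tyrobp and Syk pathway, these 2 fell and 0 rose, with a median of -0.12. Over all targets, 0.0551% were called lower and the median was 0.00. Only 1 of the 12 was above background, and neither Trem2 nor Tyrobp was.

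Of 25 genes of disease-associated microglia, 5 fell (Ctsd, Tyrobp, Spp1, Cst7 and Trem2) and 0 rose under 5xFAD-LynKO, beside 0.0551% of all targets called lower. At an unadjusted p under 0.05 there were 12, all lower, these 5 included, beside 3.92% lower over all targets. The median of the list was -0.28. For Ctsd, Spp1 and Cst7 the columns headed WT were the higher ones, the reverse of the known state around plaques given above. The columns headed 5xFAD were lower than WT in these genes too. The reason for this direction was not tested. In 5xFAD-LynKO, 10 of the 25 stood at or below the negative probe, near the share of all targets (7810 of 19960). Under WT 5 of the 25 did, beside 6679 of all targets. Spp1, which encodes osteopontin, ran from 0.911 to 1.94 under WT and stood at 0.687, 0.776, 0.80, 0.754 and 0.609 under 5xFAD-LynKO, under the negative probe in every column. Its log2 difference was -0.79 (interval -1.10 to -0.49, adjusted p = 0.029). Without WT columns 1 and 3 it was -0.52 and not called (adjusted p = 0.293).

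Apoe, the main lipid carrier made by glia, was well above background in both groups. It ran from 5.18 to 9.77 under WT, with a median of 6.44, and stood at 2.25, 3.28, 2.16, 2.48 and 5.36 in 5xFAD-LynKO columns 1 to 5. Column 5 alone overlapped with WT. The log2 difference of -1.18 (interval -1.71 to -0.65) had an adjusted p of 0.121. With each column left out in turn it ran from -1.39 (without 5xFAD-LynKO column 5, adjusted p = 0.0313) to -1.07 (without 5xFAD-LynKO column 3, adjusted p = 0.638), and 1 of these 11 fits called it. Under the other settings its adjusted p ran from 0.0116 with the pan-neuronal covariate to 0.536 with quantile normalization, where the difference was -0.79. B2m, which encodes beta-2-microglobulin, ran from 1.83 to 4.45 under WT and from 1.22 to 1.76 under 5xFAD-LynKO without overlap, at -0.82 log2 (adjusted p = 0.0866). Fth1, the ferritin heavy chain for iron storage, ranged from 7.07 to 35.4 under WT and from 6.41 to 13.7 under 5xFAD-LynKO. These overlap between 7.07 and 13.7, and WT reached higher.

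Of 17 pan-microglial and myeloid genes, 3 fell (C1qa, C1qc and Ctss) and 0 rose, and 16 of 17 differences were below 0. Over all targets, 0.0551% were called lower and 48.7% were below 0. The list's mean level was 2.24 and 2.02 times the column median in WT columns 1 and 3, 1.19 to 1.27 in the other WT columns and 1.02 to 1.07 in the 5xFAD-LynKO columns. The ranges of both genotypes did not overlap, with or without WT columns 1 and 3. Nor did those of the Trem2, Tyrobp and Syk pathway list, at 1.02 to 1.41 under WT and 0.943 to 0.980 under 5xFAD-LynKO. Those of the disease-associated and homeostatic microglial lists did overlap. The disease-associated list ran from 1.61 to 3.49 under WT and from 1.45 to 1.62 under 5xFAD-LynKO. The homeostatic list ran from 1.02 to 1.58 and from 0.987 to 1.08. Since the segments are bulk samples, fewer microglia in a segment and less RNA per microglial cell cannot be told apart. Csf1r, the receptor for the growth factors that microglia need to survive, ran from 1.46 to 3.09 under WT and from 1.08 to 1.48 under 5xFAD-LynKO, at -0.52 log2 (adjusted p = 0.40). Aif1, which encodes IBA1, ran from 1.79 to 2.59 and from 1.59 to 2.36, which overlap, with a difference of -0.13 (interval -0.39 to 0.13). Cd68, a lysosomal membrane protein of phagocytes, was chosen after its values were seen because it missed the call narrowly, at -0.47 with an adjusted p of 0.0986.

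Of 17 homeostatic microglial genes, 0 were called, 9 had an unadjusted p under 0.05 (all lower, beside 3.92% of all targets), and the median was -0.19. Cx3cr1, the fractalkine receptor gene, ran from 1.09 to 2.06 under WT and from 0.972 to 1.16 under 5xFAD-LynKO, at -0.42 log2 (adjusted p = 0.40). Rhob, a small GTPase gene on the same list, ran from 2.18 to 3.27 under WT and from 1.67 to 2.06 under 5xFAD-LynKO without overlap (-0.48, adjusted p = 0.123).

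Markers of other immune cells were near background. Of 9 genes of border-associated macrophages 0 were called, the median was 0.06, and 5 stood at or below the negative probe under 5xFAD-LynKO. Of 14 measured genes of monocytes, neutrophils and lymphocytes 0 were called, the median was -0.01, and 7 stood at or below the negative probe under 5xFAD-LynKO. Of all 19960 targets, 7810 did.

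**Figure D2:**
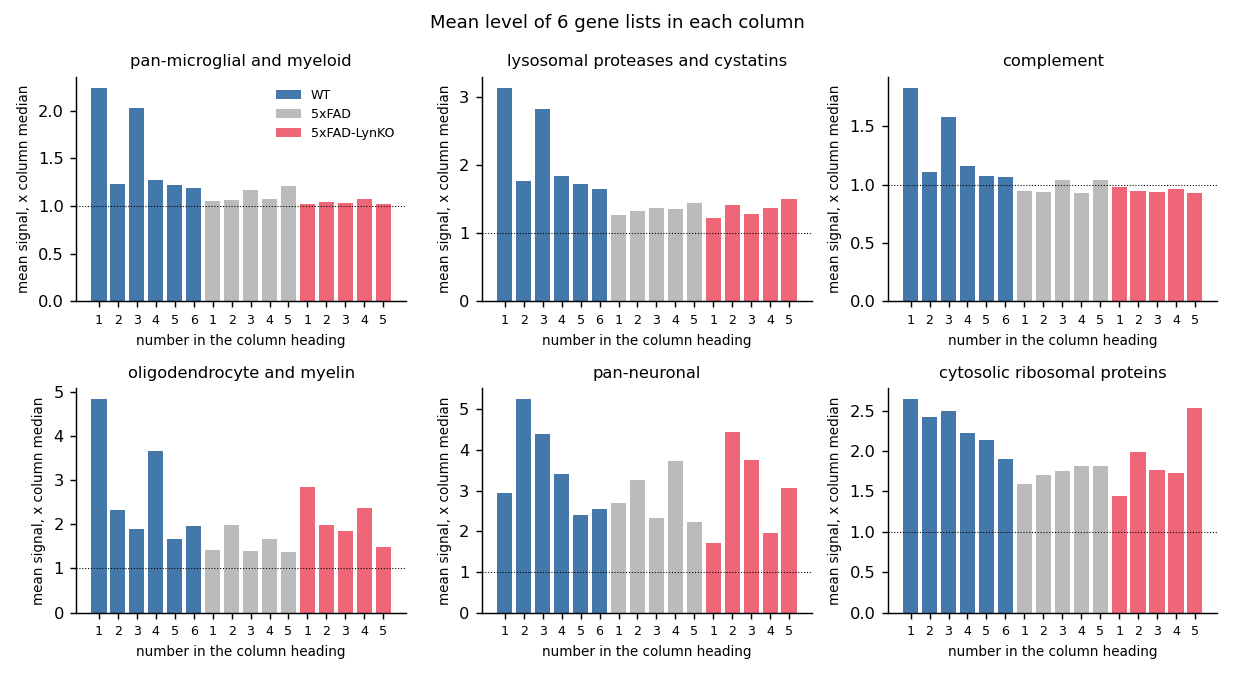
Mean signal of the measured members of 6 gene lists in each of the 16 columns, as a multiple of the column median. Bars are columns, grouped and coloured by heading, and the dotted line marks the median target. The microglial, protease and complement lists are highest in WT columns 1 and 3, the oligodendrocyte list in WT columns 1 and 4 and the pan-neuronal list in WT column 2.

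Metallothioneins bind zinc and copper and are made largely by astrocytes in brain. Mt1 stood at 2.11 to 3.38 times the negative probe under WT, with a median of 2.43, and at 1.39, 1.82, 1.46, 1.66 and 1.36 in 5xFAD-LynKO columns 1 to 5. All WT columns were above all 5xFAD-LynKO columns, and WT column 5, which was not high in microglial genes, had the highest level. Mt1 differed by -0.64 log2 (interval -0.87 to -0.41, adjusted p = 0.0193), and -0.70 without WT columns 1 and 3 (adjusted p = 0.0288). Mt2, its neighbour on the chromosome, ran from 1.63 to 2.06 under WT and from 1.17 to 1.41 under 5xFAD-LynKO without overlap, at -0.42 log2 with an adjusted p of 0.0866. Mt3, the isoform of neurons and astrocytes, was at -0.24 (adjusted p = 0.508), and Mt4, which lies beside them and is known from squamous epithelium, was under the negative probe in all 11 columns. Of the 4 genes, 1 fell and 0 rose, beside 0.0551% of all targets called lower.

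Zinc induces Mt1 and Mt2 through metal response elements. Their core was searched by the loose pattern TGCNCNC, in capitals on either strand in the 250 bases before each start. The sequences are from RefSeq on GRCm38.p6, 5′ to 3′, at chr8:94178839-94179088 and chr8:94172368-94172617, both on the plus strand.
Mt1: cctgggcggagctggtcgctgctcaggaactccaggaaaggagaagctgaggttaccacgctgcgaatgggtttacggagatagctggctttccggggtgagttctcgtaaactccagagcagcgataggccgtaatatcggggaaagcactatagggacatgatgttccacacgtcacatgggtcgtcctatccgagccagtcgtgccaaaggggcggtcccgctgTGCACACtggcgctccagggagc
Mt2: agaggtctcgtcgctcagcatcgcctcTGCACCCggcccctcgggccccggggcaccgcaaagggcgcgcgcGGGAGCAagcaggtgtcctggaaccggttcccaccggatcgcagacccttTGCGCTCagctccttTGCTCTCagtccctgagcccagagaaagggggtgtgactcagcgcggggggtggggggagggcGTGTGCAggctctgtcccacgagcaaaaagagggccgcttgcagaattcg
The window of Mt2 held 5 matches and that of Mt1 held 1. Bases after the annotated starts were not searched, so these counts are not those of whole promoters. The pattern was in 44.4% of all windows and more than once in 15.2%. It takes any base at N, so a match need not be an element.

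Gfap, the intermediate filament gene of astrocytes, was kept outside the family of tests because its protein was used to choose the other kind of segment. It stood at 2.52 to 6.88 times the negative probe under WT, with a median of 2.93, and at 1.35, 1.11, 1.17, 1.70 and 1.11 in 5xFAD-LynKO columns 1 to 5. The groups did not overlap, and WT columns 1 and 4 were the highest. The log2 difference was -1.44 (interval -1.83 to -1.05, limma adjusted p = 2.61e-04). Gfap thus moved beside the microglial genes, and its part in their results was not tested. Of the other genes on the 19-gene astrocyte list 0 were called, and the median of the list was -0.10. The list's mean level ran from 2.24 to 3.07 times the column median under WT and from 1.70 to 2.55 under 5xFAD-LynKO, which overlap. Glul (glutamine synthetase) ran from 5.12 to 7.29 under WT and from 3.24 to 5.92 under 5xFAD-LynKO, at -0.57 log2 (adjusted p = 0.508). Slc1a2, the main glutamate transporter, was at -0.54 (adjusted p = 0.686), and Clu (clusterin) at -0.41 (adjusted p = 0.477).

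Neuronal and oligodendrocyte genes ranged widely among the columns of each genotype, and the groups overlapped. The mean level of the pan-neuronal list ran from 2.39 to 5.25 times the column median under WT and from 1.70 to 4.44 under 5xFAD-LynKO, and that of the oligodendrocyte list from 1.67 to 4.83 and from 1.49 to 2.84. In every column of both genotypes the pan-neuronal mean was above the pan-microglial one, so the segments are not shown here to be microglial alone. Snap25, of the synaptic vesicle fusion machinery, ran from 5.06 to 25.5 under WT and stood at 3.80, 17.4, 14.6, 3.78 and 4.77 under 5xFAD-LynKO. Slc17a7, the vesicular glutamate transporter of cortical neurons, was at 1.03 and 1.29 in WT columns 5 and 6 and at 4.52 or more in the other WT columns. In 5xFAD-LynKO it was at 1.60, 1.29 and 1.13 in columns 1, 4 and 5 and at 5.68 and 5.72 in columns 2 and 3. Nrgn, a postsynaptic calmodulin-binding protein gene, ran from 2.55 to 37.0 and from 2.22 to 18.1 with its lows in the same WT columns and in 5xFAD-LynKO columns 1 and 5. The interval of the Snap25 difference was -1.94 to 0.86. Of 16 pan-neuronal genes 0 were called, with a median of -0.23, and of 14 excitatory neuronal genes 0 were called, with a median of -0.20. Camk2a, a kinase of excitatory neurons, was at -0.70 (adjusted p = 0.555). Mobp, a myelin protein gene, ran from 2.59 to 12.9 under WT, highest in columns 1 and 4, and from 1.76 to 6.95 under 5xFAD-LynKO. Of 18 oligodendrocyte and myelin genes 0 were called, with a median of -0.16.

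Among genes that every cell uses, the ribosomal proteins were lower in most members without a call. Of 82 cytosolic ribosomal protein genes 0 were called, 78 differences were below 0 and 43 had an unadjusted p under 0.05, all lower. Over all targets, 48.7% were below 0 and 3.92% were lower at that p. Of the 82, 68 were above background. All 68 of these were below 0, and 41 were lower at an unadjusted p under 0.05. Among all above-background targets the shares were 84.3% and 10.3%. The median over the 82 was -0.28. Rpl13a ran from 3.50 to 5.69 under WT and from 2.25 to 4.64 under 5xFAD-LynKO, at -0.42 (adjusted p = 0.51), and Rpl31 was at -0.41 (adjusted p = 0.536). Of 82 nuclear genes of oxidative phosphorylation 0 were called, with a median of -0.08, and of 39 proteasome subunit genes 0, with a median of -0.03. Of 24 signalling genes downstream of Tlr4 or around Src-family kinases 0 were called, with a median of -0.04.

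**Figure D3:**
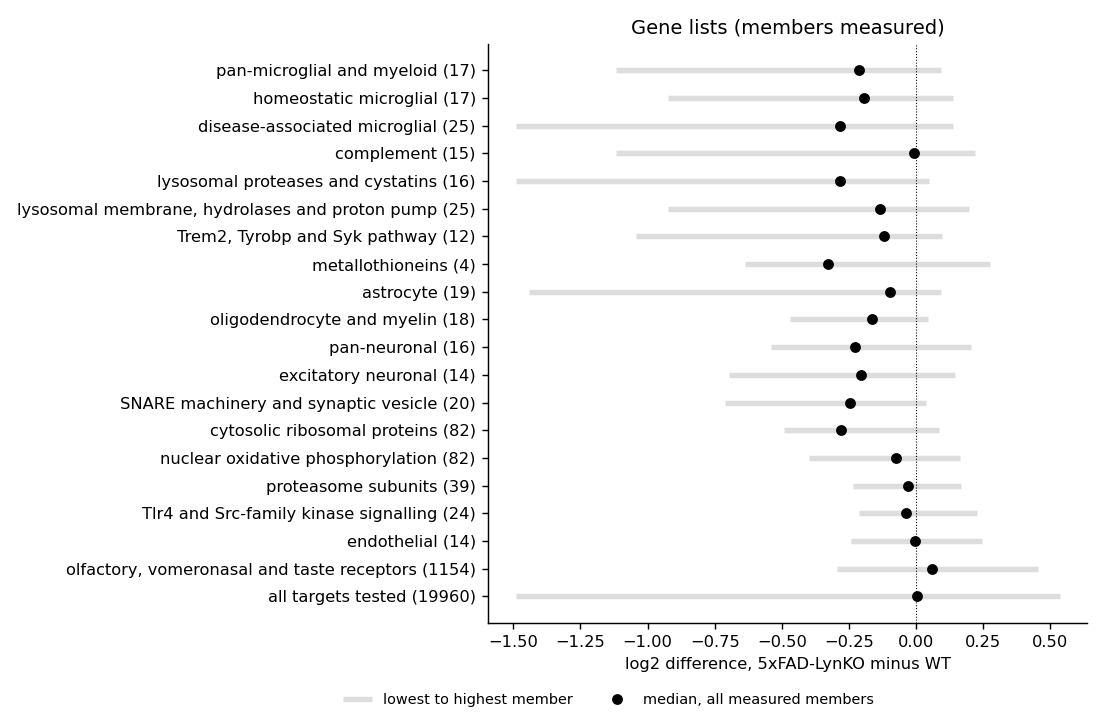
Log2 difference, 5xFAD-LynKO minus WT, for 19 gene lists and all targets. Grey lines run from the lowest to the highest member, and black points are medians over all measured members, with the number of genes in brackets. The medians run from -0.33 for the metallothioneins upward, with -0.29 for the proteases and -0.28 for both the disease-associated microglial and the ribosomal protein lists, beside 0.00 over all targets.

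The difference moved with the level of the target. Its median was 0.07 over 7313 targets under the negative probe and -0.01 over 9998 between 1 and 1.5 times it. It was -0.08 over 1962 targets between 1.5 and 2 times, -0.18 over 627 between 2 and 4 times, and -0.38 over the 60 at 4 times or more. With columns scaled on the negative probe, the class medians were -0.007, -0.086, -0.156, -0.255 and -0.455 from the lowest level up. The lowest class thus had no rise on that scale. It held 760 of the 1027 targets that were higher at an unadjusted p under 0.05. The classes and the limit for background use the mean of both genotypes, so a target can pass through either genotype alone. The part of this in the medians and shares given here was not tested. Among the 2649 above background, 84.3% were below 0, 273 had an unadjusted p under 0.05 and were lower (10.3%), and the columns did not overlap for 21 lower targets (0.793%) and 1 higher one. The higher one was Phf2, a histone demethylase gene named here after its values were seen, at 1.20 to 1.5 times the column median under WT and 1.52 to 1.75 under 5xFAD-LynKO, ranges that overlap as multiples of the negative probe (0.24 log2, adjusted p = 0.481). These medians over all targets differ by level, so a member at 4 times the negative probe or more, such as Apoe, Cst3, Psap or Glul, stands beside -0.38 and not beside 0. Of 1154 olfactory, vomeronasal and taste receptor genes, most of which no brain cell is known to use, 0 were called and the median was 0.06. Scaled on the negative probe, their median was -0.014.

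**Figure D4:**
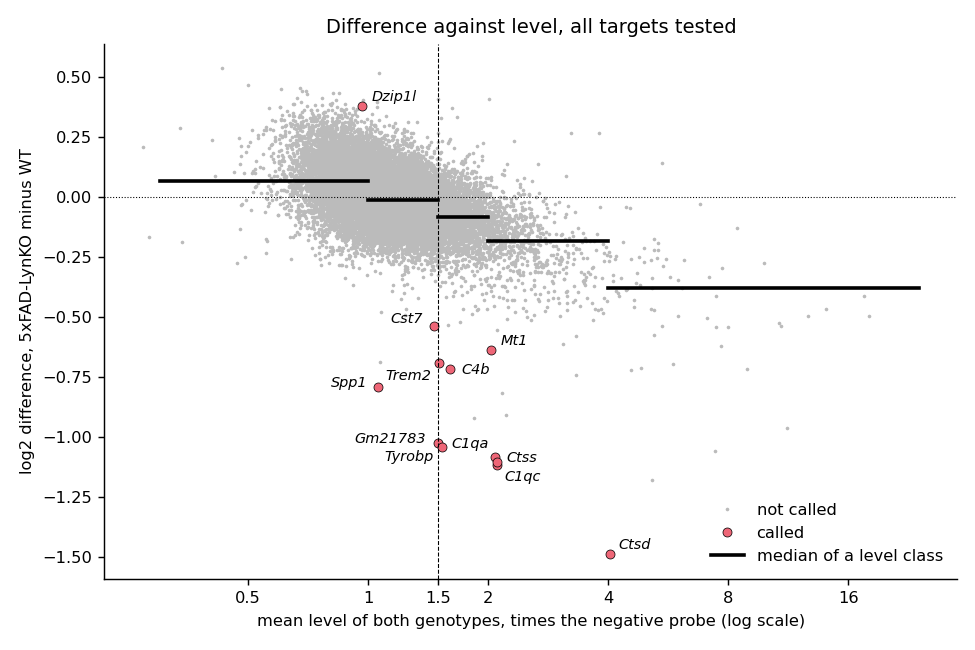
Log2 difference against the mean level of both genotypes, as a multiple of the negative probe on a log axis, for 19960 targets. Red points are the 12 called targets, black bars are medians of the 5 level classes and the dashed line marks 1.5 times the negative probe. The bars go from 0.07 to -0.38 with rising level, and 11 called targets lie below them.

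The smallest adjusted p belonged to Gm21783, a predicted gene that RefSeq places on the Y chromosome, with no role given here. In WT columns 1 to 6 its signal was 2.59, 2.20, 1.67, 1.83, 2.21 and 1.76 times that of the negative probe. In 5xFAD-LynKO columns 1 to 5 it stood at 0.892, 0.988, 0.831, 1.04 and 0.977, the level of the negative probe. WT columns 1 and 3 did not stand apart here. The log2 difference was -1.03 (interval -1.23 to -0.82, adjusted p = 7.84e-07). In the columns headed 5xFAD it lay between, at 1.24 to 1.54. Gm20792, a second Y-linked predicted gene chosen after its values were seen, was at -0.36 (adjusted p = 0.23), and Uty, a Y-linked histone demethylase gene, at -0.10 (interval -0.29 to 0.09). Of 17 Y-linked targets 1 fell, and 4 lower and 3 higher had an unadjusted p under 0.05. Over all targets, 0.0551% were called lower, and 3.92% lower and 5.15% higher had an unadjusted p under 0.05. Y-linked predicted genes can have near-identical copies that share a probe, so the value of Gm21783 is uncertain as that of a single gene, and the sex of the animals is not known here.

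Dzip1l, a zinc finger protein gene of the ciliary base, was the target called higher. It stood at 0.818 to 0.933 times the negative probe under WT and at 1.02, 1.05, 0.968, 1.17 and 1.13 under 5xFAD-LynKO, so both groups were at background. The log2 difference was 0.38 (interval 0.23 to 0.53, adjusted p = 0.0389), and it was not called when columns were scaled on the negative probe (0.31, adjusted p = 0.163).

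The columns headed 5xFAD were set against the same WT columns, so both differences are given side by side. The difference from WT was -1.47 log2 under 5xFAD and -1.49 under 5xFAD-LynKO for Ctsd, -1.001 and -1.12 for C1qc, -0.95 and -1.04 for Tyrobp, -0.59 and -0.64 for Mt1, and -1.48 and -1.44 for Gfap. Set directly against 5xFAD, 5xFAD-LynKO differed by -0.03 in Ctsd (interval -0.55 to 0.50), by -0.11 in C1qc (-0.52 to 0.29), by -0.09 in Tyrobp (-0.49 to 0.30) and by -0.04 in Trem2 (-0.34 to 0.25). These intervals, widest for Ctsd, do not show that both groups were alike. Gm21783 differed by -0.56 (-0.77 to -0.35). By limma 0 of 19960 targets were called in that contrast. The smallest adjusted p was 0.0745, and 2234 targets had an unadjusted p under 0.05.

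The number of calls rested on single columns. Without 5xFAD-LynKO column 1, the column with the fewest targets over 1.5 times the negative probe, 1 target was called (Gm21783), and without column 3 there were 2 (Gm21783 and Ctsd). Without column 2, 4 or 5 there were 5 each, without WT column 1 or 3 there were 6 and 5, and without WT columns 1 and 3 together there were 7. Without WT column 4, 5 or 6 there were 15, 15 and 14. A fit on the 11 columns of both genotypes alone, where the 5xFAD columns do not help to estimate the spread, called 1 target, Gm21783, with Ctsd, C1qc, Tyrobp and C1qa at an adjusted p of 0.0886. The log2 differences of the 11 lower genes stayed below 0 in every fit run. These genes were picked as lower, and every fit scaled the columns, so the deposited shift in column medians was never kept.

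**Figure D5:**
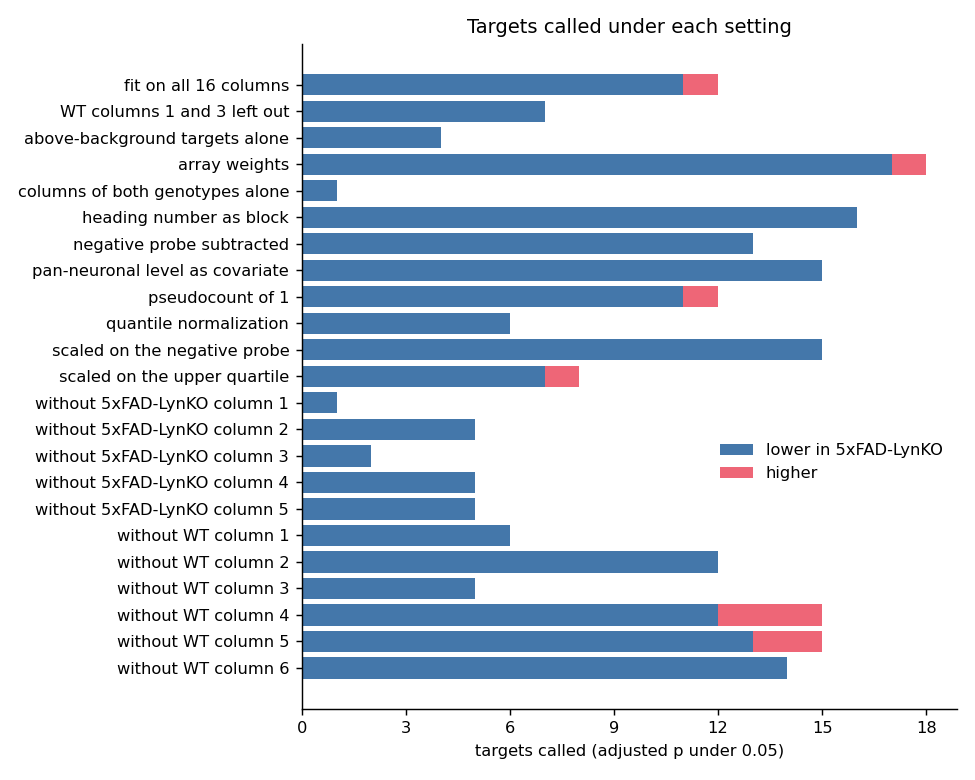
Number of targets called under each of 23 settings, lower in 5xFAD-LynKO in blue and higher in red. Apart from the fit on all 16 columns as described, each bar is a fit with 1 choice changed, and the replicate block also takes WT column 6 out of the contrast. The fit on all 16 columns gives 12, and the others run from 1 to 18.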

How the data were processed

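GeoMx probe tags were sequenced from segments of frozen sections of perfused, prefixed mouse brain, per the labels' protocols. The values are a signal without negative numbers, deposited by the authors as 1 table of 16 columns. No source used here gives its software, normalization or genome build. Of 19963 rows, 19959 held whole multiples of a column's own step (tolerance 1e-06), which gave the implied probe counts, but the smallest value was 9 to 66 steps, so no count test was run. Each column was divided by its median over all rows except the negative probe, and log2 was taken without a pseudocount. Differences were fitted with limma 3.58.1 in R 4.3.3 (mean trend, 16 columns, no covariate) and adjusted over 19960 targets. Tmem119 and Gfap, whose proteins chose the segments, were outside that family, and each was adjusted as if added to it alone. Column measures had exact permutation tests (scipy 1.17.1), and intervals are 95%. The fit was tested on simulated data with independent normal noise, which does not cover columns that share an animal. That test recovered 10% of 1.25-fold, 68% of 1.5-fold and 98% of 2-fold changes, all set in above-background targets. Replicate columns differed by more than count noise (chi-square per degree of freedom at least 1.16). The gene lists, of which there were 40, and the members were chosen with earlier results of these data known. Genes were named by rule: Lyn, Tlr4, Tmem119 and Gfap, the called targets, up to 3 uncalled members of highest level in each list, and the 10 targets of highest level. Exceptions are marked in the text. Other scalings, a pseudocount, background subtraction, a filter, weights, a block, a covariate and left-out columns were tried. Some results are not reported here.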

Additional observations from a re-analysis of the deposited data

Results flagged for a closer look

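Of 104 groups of columns examined for a single column far from the rest, 1 had one, where chance gives about 1 in 20. Mt4, a metallothionein gene of squamous epithelium, stood at 0.731 times the column median in 5xFAD-LynKO column 1 and at 0.574 to 0.602 in the other 4. All 5 values lay under the negative probe.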

How the results depend on the processing

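The log2 differences of the 11 lower called genes, which were picked as lower, were below 0 in every fit run that included them. No fit was run on the values as deposited, without scaling of the columns. The 12 targets called (11 lower, 1 higher, 6 above background) became 7 without WT columns 1 and 3 (7 lower, 0 higher, 5 above background). A fit on above-background targets alone gave 4 (4 lower, 0 higher), with fewer targets tested. Array weights gave 18 (17 lower, 11 above background). The columns of both genotypes alone gave 1 (1 lower, 0 higher, 0 above background). Quantile normalization gave 6 (6 lower, 0 higher, 3 above background), and scaling on the upper quartile gave 8 (7 lower). None was called higher, that is 0, with the negative probe as scale or subtracted, where subtraction left 3 above background, nor with the pan-neuronal covariate, which gave 10 above background. Leaving out each column in turn gave 1 to 15 calls, 1 to 14 lower, 0 to 3 higher and 0 to 8 above background. The difference in targets over 1.5 times the negative probe then ran from -1544 to -911, and that over 2 times from -533 to -304.

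Whether the heading numbers pair the columns is not known here. Deviations of same-numbered WT and 5xFAD-LynKO columns correlated at 0.33, 0.69, 0.43, -0.28 and 0.08. WT columns 1 and 2 correlated best with the 5xFAD-LynKO column of the same number, and WT columns 3, 4 and 5 with another. Such values do not decide the question. With the number as a replicate block, in which WT column 6 has no partner and drops out of the contrast, 16 targets were called, 0 higher and 10 above background.

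Uncalled differences near 0 changed sign. Lyn was at 0.031 without WT columns 1 and 3 and at 0.0051 on the upper quartile, and ran from -0.084 to 0.0070 with each column left out. Under quantile normalization Aif1 was at 0.0054, Mobp at 0.10 and Fth1 at 0.024. Mobp ran from -0.49 to 0.030 with each column left out. With the pan-neuronal covariate Slc17a7 was at 0.0028 and Nrgn at 0.0030. The causes of these changes were not tested. The planned count test was not run. Most targets lay near the negative probe, which limits what can be measured of weakly expressed microglial genes.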
